A study of Mus musculus with 110 samples.

Results

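Minus-orientation junctions in the D array are the rare reads in which JH4 was joined to a D-array sequence that lies inverted with respect to the usual joint. Over 98 libraries, 3656 such junctions were found among 3239326 junctions in the D array and 3602400 junctions in all, 0.113% of the first and 0.101% of the second. They were chosen by position and orientation alone: prey on chromosome 12 between 114672801 and 114790000, in the coordinates of the deposited files, read on the minus strand. The window spans the D segments and the interval above them up to the VH side, and 96 of the 98 libraries held at least 1 such junction.

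The assay was linear-amplification translocation sequencing (LAM-HTGTS) of genomic DNA from a bait at JH4, in which each read starts in JH4 and ends in the prey to which it was joined. All groups but 1 are v-Abl transformed pro-B lines, RAG2 deficient and carrying Emu-Bcl2, a transgene of the survival factor Bcl2. The lines were nucleofected with RAG2 and kept for 4 days in 3 µM STI-571, an Abl kinase inhibitor, with or without the auxin IAA at 500 µM, started 6 h earlier. The parental line carried nothing further, and the control lines had an Ostir1 knock in or CTCF-mAID-GFP tagging alone, each with 4 untreated and 4 IAA replicates. Ostir1 is the plant protein that lets auxin trigger breakdown of a protein with a degron tag. CTCFdegron had 6 untreated and 6 IAA replicates, Rad21degron had 3 and 3, and IGCR1deleted Rad21degron had 4 and 4. CTCF is a DNA-binding protein that anchors chromatin loops, Rad21 is a cohesin subunit, and IGCR1 is a CTCF-bound element between the D and VH segments. Primary pro-B cells of wild-type 129SV bone marrow, sorted as B220+CD43+IgM- (replicate 1 has no sort label), had 6 replicates. The labels do not say whether replicates were separate cultures, or how many clones a line stands for, so p-values measure the spread between these samples, which may be technical.

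V(D)J recombination is cut by RAG at recombination signals, each a heptamer that starts with CAC beside the coding segment, a spacer and a nonamer. A D segment has a signal on both sides. Igh is transcribed toward JH, so joining JH4 to the 3′ side of a D with loss of the DNA between them gives a prey read on the plus strand, from the end of the D back toward VH. In a minus junction the prey reads the other way, toward JH. That read can begin in a recombination signal, when the JH coding end is linked to the signal end of the D (a hybrid joint), or at the 5′ coding end of a D joined through its 5′ signal (an inverted D).

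The segments on which most minus junctions lay are shown first, since the prey starts fall on their borders. Each is the consensus of the deposited prey reads, written on the coding strand (the minus strand of chromosome 12) from the 5′ nonamer to the 3′ nonamer, with heptamers and nonamers in capitals and spacers and coding bases in lower case. Names come from matches to the mm9 annotation, and positions are those of the deposited files.
Ighd4-1, 114673061 to 114673127: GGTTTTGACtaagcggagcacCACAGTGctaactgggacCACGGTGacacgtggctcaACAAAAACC
Ighd3-2, 114687584 to 114687655: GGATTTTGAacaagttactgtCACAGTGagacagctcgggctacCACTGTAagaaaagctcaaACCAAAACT
Ighd2-3, 114727749 to 114727821: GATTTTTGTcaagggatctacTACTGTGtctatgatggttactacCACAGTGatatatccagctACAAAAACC
Ighd1-1, 114734516 to 114734594: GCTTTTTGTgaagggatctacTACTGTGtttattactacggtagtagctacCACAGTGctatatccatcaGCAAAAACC
In mm9 the D segment of Ighd4-1 (DQ52), the one nearest JH, lies at chr12:114668739-114668749, Ighd3-2 at chr12:114686425-114686440, Ighd2-3 at chr12:114713611-114713627 and Ighd1-1 (DFL16.1) at chr12:114720381-114720403, all as D gene segments on the minus strand.

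Example reads show the difference between the orientations. Each is written from the bait outward, with bait and inserted bases in lower case and prey in capitals. The first is the minus junction at the Ighd1-1 heptamer seen in the most libraries (22 libraries, 47 reads), the second is the most frequent plus junction of Ighd1-1 (92 libraries, 60683 reads), and the third is a minus junction near the 5′ coding end of Ighd4-1 (2 libraries, 3 reads).
Minus, Ighd1-1 heptamer: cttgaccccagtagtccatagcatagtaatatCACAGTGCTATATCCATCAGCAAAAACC
Plus, Ighd1-1 coding end: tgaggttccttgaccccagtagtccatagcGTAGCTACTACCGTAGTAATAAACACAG
Minus, Ighd4-1 5′ coding end: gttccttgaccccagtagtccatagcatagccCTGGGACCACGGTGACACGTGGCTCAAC
The first read runs from JH4 into the complete heptamer, spacer and nonamer of Ighd1-1 and holds no D coding base. The second runs into the D itself. The third lacks the first 4 bases of the D, runs into it from its 5′ side and leaves through the 3′ heptamer of the same segment.

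Minus orientation was far rarer in the D array than in other prey of the same libraries. Over all libraries it made up 0.113% of junctions in the D array, 0.995% (3106 of 312127) in the 3 Mb above it, which hold the VH segments, and 44.0% (5730 of 13009) on other chromosomes, where no orientation is fixed by the locus. In untreated parental cells the values were 0.122% ± 0.0184, 1.22% ± 0.372 and 43.1% ± 3.72 (SD, n = 4). The D array was lower in every replicate in 24 of 26 comparisons with these regions, group by group. In the groups of 6 (CTCFdegron with and without IAA, bone marrow) the two-sided exact sign-flip test gave p = 0.0312, the smallest it allows, and no comparison passed after Benjamini-Hochberg adjustment (lowest 0.135). With 3 or 4 replicates the test cannot go below 0.25 or 0.125. The exceptions were the 3 Mb above the array in the IAA groups of Rad21degron and IGCR1deleted Rad21degron, where 5 and 511 junctions in all were found. The rest of chromosome 12, outside the array and those 3 Mb, was not compared group by group. Over all libraries 87.8% of its junctions (33294 of 37938) were in minus orientation.

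The share of minus junctions depends on how repeated reads are treated. When reads of a library with the same junction, bait end and inserted bases (number and sequence) were counted once, 2698 distinct minus structures remained, 73.8% of the reads. Of plus reads 31.5% remained (1017927 of 3235670), so minus orientation made up 0.264% of distinct structures. A repeated structure can be a copy made by amplification or an independent joint of the same form, and the files do not tell these apart.

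Group means of the minus share of D-array junctions lay between 0.0691% and 0.184% in all groups but those of the Rad21 lines with IAA. Untreated parental replicates had 0.113%, 0.101%, 0.136% and 0.139%, a mean of 0.122% ± 0.0184 (SD, n = 4). Parental replicates with IAA had 0.112%, 0.108%, 0.0990% and 0.0781%, and overlapped with the untreated ones. Untreated CTCF-mAID-GFP tagging replicates had 0.160%, 0.0829%, 0.0826% and 0.0874%, and those with IAA 0.0934%, 0.0818%, 0.0714% and 0.0852%. One untreated replicate of that line stood above the other 3. In the Ostir1 knock in line, replicates fell into a lower and a higher pair, at 0.0869%, 0.0713%, 0.251% and 0.220% untreated and at 0.0700%, 0.0466%, 0.176% and 0.159% with IAA. The lower and higher pairs came from different sequencing runs, as read names show, with means of 0.0791% and 0.235% untreated and 0.0583% and 0.167% with IAA. In untreated cells that gap between the pairs of 1 line was larger than any difference between the means of untreated lines. Parental cells with IAA were sequenced in both of these runs and went the other way. They averaged 0.1099% in the run of the lower pairs and 0.0885% in that of the higher pairs. Untreated parental replicates in the run of the higher pairs averaged 0.137%. The cause of the gap in the Ostir1 knock in line was not tested. Replicate totals ran from 1263 to 231023 junctions, and 3 junctions, the limit that a count of 0 allows, were 0.00274% to 0.550% of the D-array junctions of a library. Intervals and floors cover counting error only, since reads carry no molecular identifiers.

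**Figure D1:**
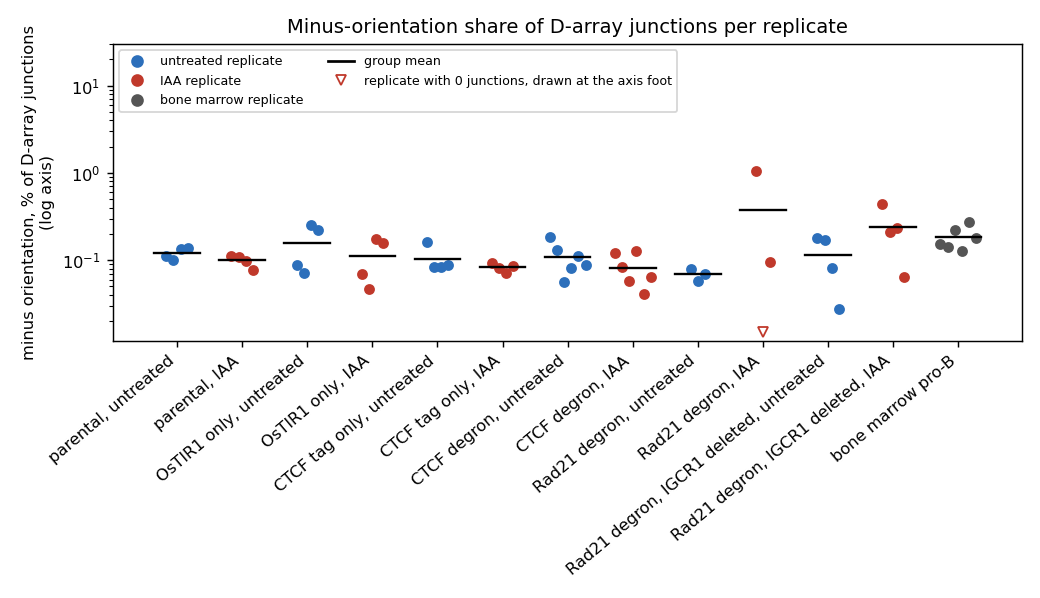
Minus-orientation junctions as a percent of D-array junctions (vertical, log axis) in each replicate (points; mean of its a and b libraries) of the 13 groups (horizontal), with the group mean as a line. Most replicates sit near 0.1%, those of the Ostir1 knock in line form a lower and a higher pair, and the Rad21degron replicates with IAA run from 0 (open triangle) to 1.04%.

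Most minus junctions began at the border between a D and its 3′ heptamer. Of the 3656, 2121 (58.01%) began within 3 bp of that border, 496 (13.6%) farther inside the signal, 53 (1.45%) inside the D, 133 (3.64%) near the 5′ coding end (from 5 bases inside it to 3 beyond), 437 (11.95%) between D segments and 416 (11.4%) above Ighd1-1. The class inside the signal ran to 40 bp from the border, so that it took in some starts beyond the nonamer. In plus orientation 54.8% lay at the border and 37.7% inside the D, 0.0277% lay farther inside the signal and 1.65% above Ighd1-1. The exact first base differed between the orientations. In minus orientation 1132 junctions began with the first heptamer base and 492 with the last coding base before it, while 32.1% of plus junctions began with the last coding base and 76.2% within the last 6.

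The prey of 1250 minus junctions (34.2%) began with CAC, the first bases of the heptamer on the strand read, and that of 1065 (29.1%) with the full CACAGTG. In plus orientation 0.432% began with CAC. As a measure of chance, CAC stood at 2.66% of the 43219 positions of the array whose sequence the reads gave, counted on the strand a minus junction reads. At the D borders the count largely restates position, since 1131 of the 1250 start on a first heptamer base. Loss of bases went into the signal in minus junctions, in which 496 lacked more than 3 bases of it, and into the coding sequence in plus junctions.

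**Figure D2:**
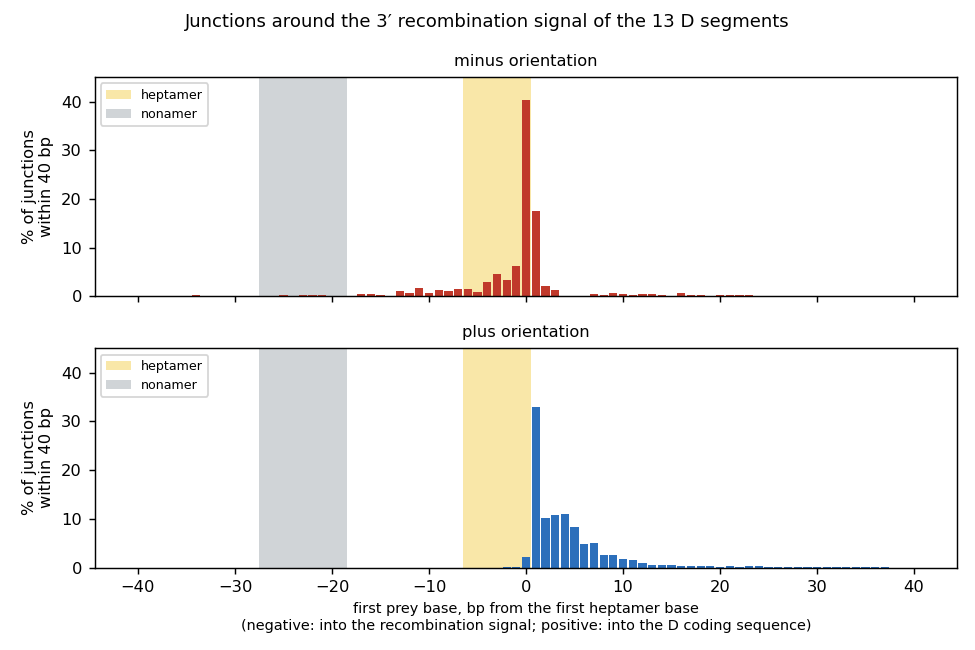
First prey base of junctions within 40 bp of the 3′ heptamer of 13 D segments, as a percent of the junctions in that range (vertical), against the distance in bp from the first heptamer base (horizontal; negative values lie in the recombination signal, positive ones in the D), for minus (upper) and plus orientation (lower). Minus junctions peak on the first heptamer base and trail into the signal, and plus junctions peak on the last coding base and trail into the D.

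Counts of minus junctions at the 13 D segments found followed use in plus orientation in rank (Spearman's rho 0.759 over 13 segments of the same libraries, as a description). Ighd1-1, the D farthest from JH among the segments in regular use, held 1732 minus junctions, 47.4% of all, and 57.2% of the plus ones. Its minus share was 0.0935% of its junctions (exact 95% binomial interval 0.0891% to 0.0980%). Of its minus junctions 824 began exactly with the heptamer and 211 lay farther inside the signal. Ighd4-1 had 219 minus junctions and a share of 0.0989% (0.0862% to 0.113%). Ighd2-3 also had 219, a share of 0.0803% (0.0701% to 0.0917%), and 102 of them lay inside the signal, a larger part than at the other named segments.

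Ighd3-2 stood apart. Its 117 minus junctions were 0.434% of its junctions (0.359% to 0.520%), and the share was above that of Ighd1-1 in each of the 11 groups in which Ighd3-2 had any. The other groups, Rad21degron and IGCR1deleted Rad21degron with IAA, had 81 and 140 plus junctions there and no minus one. Ighd3-2 is little used in plus orientation (0.829% of plus junctions), and its 3′ heptamer CACTGTA and nonamer ACCAAAACT differ from those of the other printed segments. Bone marrow gave 39 of the 117, at 0.721%, and untreated parental cells 14, at 0.623%.

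Among the segments of the Ighd2 family, the one at 114690286 had 156 minus junctions and a share of 0.0637% (0.0541% to 0.0745%), and the one at 114714725 had 79 and 0.0635% (0.0503% to 0.0791%). The segment at 114695747 had 71 and 0.0536% (0.0419% to 0.0676%), the lowest of the 9 segments with at least 50 minus junctions. The segment at 114705399 had 98 and 0.0990% (0.0804% to 0.121%). A segment at 114719358, closest to Ighd1-1 of mm9 at 85.8% identity, had 59 and 0.159% (0.121% to 0.206%), and 32 of them began with the last coding base. These repeats are near-identical in sequence, and a short prey could be placed on the wrong one.

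Prey starts at the 5′ coding end, as an inverted D joint gives, were counted from 5 bases inside that end to 3 bases beyond it. Of 133 such junctions, 74 lay at Ighd4-1 and Ighd3-2. They made up 19.6% of the minus junctions of Ighd4-1 (43, in 26 libraries) and 26.5% of those of Ighd3-2 (31, in 18 libraries), against at most 6.78% at any of the other 11 segments. Ighd1-1 had 41 in 21 libraries, 2.37% of its minus junctions. The coding sequence of Ighd4-1 is only 11 bases long, so that the range takes in much of it. With at most 3 coding bases lost, an alternative chosen after seeing the data, 99 junctions remained, with 30 at Ighd4-1 (13.7%), 29 at Ighd3-2 (24.8%) and 32 at Ighd1-1 (1.85%), against at most 4.08% at any segment other than Ighd4-1 and Ighd3-2. On the coding strand the 5′ heptamer reads CACAGTG at Ighd4-1 and Ighd3-2 and TACTGTG at Ighd2-3 and Ighd1-1, as printed above. Whether the heptamer bears on the counts was not tested.

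**Figure D3:**
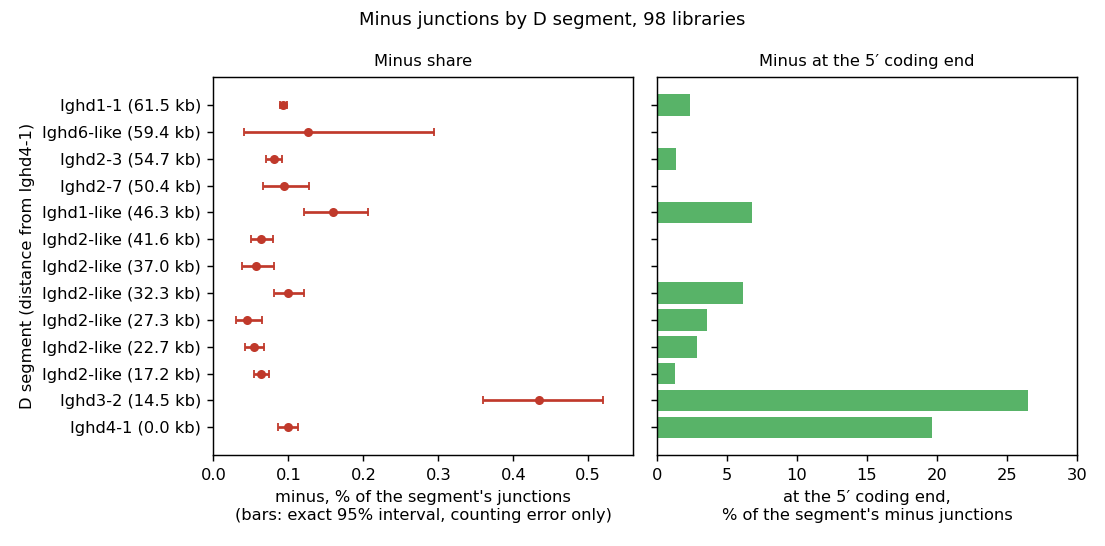
Minus junctions at the 13 D segments (vertical, ordered from VH at the top to JH at the bottom, with the distance from Ighd4-1 in kb). The left panel gives the minus share of the junctions of each segment in percent with its exact 95% interval, and the right panel the percent of its minus junctions that begin from 5 bases inside the 5′ coding end to 3 beyond it; Ighd3-2 is highest on the left, and Ighd3-2 and Ighd4-1 on the right.

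Outside the segments, minus junctions gathered at a few sites. Within 100 bp of a D border lay 78.0% of minus junctions (2851) and 97.9% of plus ones. The rest fell into 100 sites, of which the 5 with the highest mean share over libraries are shown, with 20 bases that were not read in lower case followed by the first prey bases in capitals.
114685804: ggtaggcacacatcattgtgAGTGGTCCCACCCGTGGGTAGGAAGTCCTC
114737562: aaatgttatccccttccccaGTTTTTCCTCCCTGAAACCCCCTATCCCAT
114736522: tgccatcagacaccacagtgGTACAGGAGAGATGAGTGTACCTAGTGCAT
114735201: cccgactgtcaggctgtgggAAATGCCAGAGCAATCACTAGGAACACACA
114735573: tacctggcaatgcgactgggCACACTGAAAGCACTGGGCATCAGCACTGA
The site at 114685804 lies between Ighd4-1 and Ighd3-2, 12715 bp above the border of Ighd4-1. It held 205 minus junctions from 60 libraries and 11 groups, against 204 plus junctions within 100 bp, so that here the orientations were about equally frequent. The unread bases next to the prey end in GTG, which is CAC on the other strand, and the same holds at 114736522 (114 minus junctions, 45 libraries, 9 groups). This was read at the most frequent start of each site, where 88 of the 205 and 27 of the 114 began. GTG stood next to 1.64% of the positions of the array and next to 205 (5.68%) of the 3609 minus junctions with a sequence there. Those 88 and 27 junctions are among them, so the 5.68% in large part counts these sites again. At 114735573 (34 minus junctions, 23 libraries) the prey began with CAC in 23, and 21441 plus junctions lay within 100 bp. At 114735201 (83 minus junctions, 34 libraries) neither the 3 bases next to the most frequent start (24 junctions) nor the first 3 of the prey are these letters. A GTG does stand within 3 bases of that start, and 68 plus junctions lay nearby. The site at 114737562 differed in kind: 16 of its 19 minus junctions, from 10 libraries, had a bait end 66 bases short of the usual one, and the prey alignment had a median of 60 bases.

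**Figure D4:**
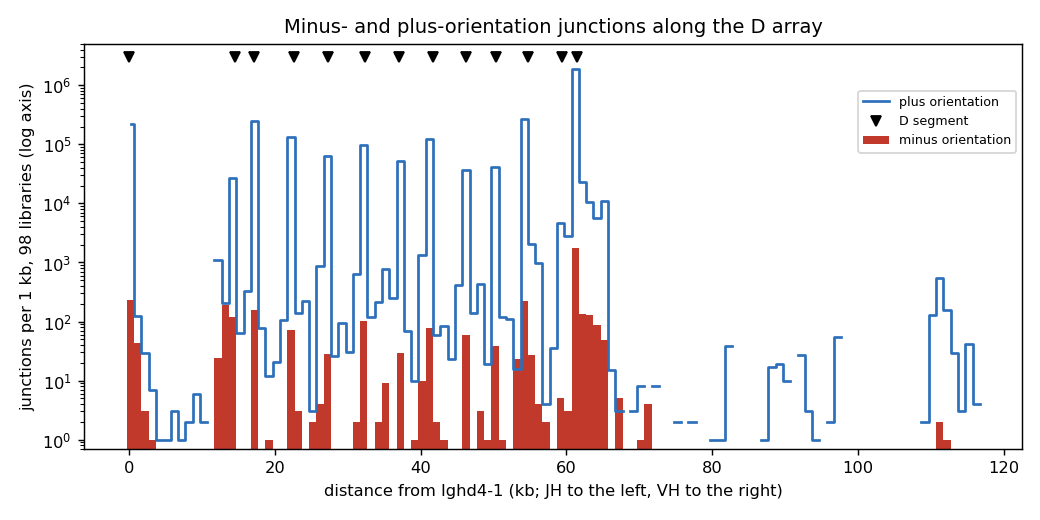
Junctions per 1 kb over 98 libraries (vertical, log axis) along the D array (horizontal, kb from Ighd4-1 with JH to the left and VH to the right) in minus (bars) and plus orientation (line, interrupted where no plus junction was found); triangles mark the D segments. Minus junctions stand at the D segments, at the site between Ighd4-1 and Ighd3-2 and in the 5 kb above Ighd1-1, with 13 beyond that.

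The 5 kb above Ighd1-1 held 403 minus junctions, 0.767% of the junctions there, and the whole interval beyond 13. The bases between bait and prey were long at these sites, with a median of 12 inserted bases against 2 over all minus junctions. Of the 416 minus junctions above Ighd1-1, 255 had 8 or more inserted bases, and in 225 (54.1%) the insert matched at least 8 bases of a D in the orientation of the usual DJH joint. In none was the D inverted. Ighd1-1 supplied 117 of the 225. In such a read the order is JH4, D, prey. In plus orientation above Ighd1-1, 57.4% of junctions (30564 of 53259) held such a D and 104 an inverted one. Between the D segments the balance was different: 33 minus junctions had an inserted D in inverted orientation, 22 of them Ighd1-1, and 14 one in the usual orientation. The site at 114685804 accounted for 14 of the inverted and 5 of the usual ones.
Ighd1-1 in the usual orientation, prey at 114736517, CTCF-mAID-GFP tagging untreated: aacGTAGCTACTACCGTAGTAATAAAgg
Ighd1-1 inverted, prey at 114685801, CTCFdegron with IAA: caATTACTACGGTAGTAGCTACgg
These are inserts of single reads with the bases that match the D in capitals, 23 of 28 in the first and 20 of 24 in the second. The first reads as the plus junction of Ighd1-1 does after its bait. The second is the same D on the other strand.

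The make-up of the joint was compared between the orientations. Over all libraries, inserted bases were present in 68.8% of minus and 69.0% of plus junctions, and bases shared by bait and prey in 17.6% and 20.03%. Inserts of 8 or more bases were present in 13.4% of minus and 5.07% of plus junctions, and a bait end at least 30 bases short of the usual one in 2.95% and 0.253%. Both values differed by position. Such inserts were present in 3.16% of minus junctions at the 3′ heptamer border and 61.3% of those above Ighd1-1. Plus junctions above Ighd1-1 had 75.99%. Short bait ends were present in 0.141% of minus junctions at the border, 15.3% between D segments and 7.69% above Ighd1-1. Plus junctions above Ighd1-1 had 2.39%. A difference between the orientations at like positions was not tested. For inserted and shared bases the groups did not all differ in the same direction. In untreated parental cells inserted bases were present in 75.7% ± 10.99 of minus and 65.1% ± 13.1 of plus junctions, higher in 4 of 4 replicates (SD, n = 4). Shared bases were lower in minus junctions in 4 of 4 replicates with IAA, with a mean difference of −6.81 points in parental and −5.96 points in CTCF-mAID-GFP tagging cells. For these 3 the exact sign-flip p was 0.125, which 4 replicates cannot go below, and groups of 2 or 3 cannot go below 0.5 or 0.25. In bone marrow, inserted bases were present in 73.8% ± 7.51 of minus and 88.4% ± 0.474 of plus junctions, lower in 6 of 6 replicates (SD, n = 6; two-sided exact sign-flip p = 0.0312, the smallest possible; Benjamini-Hochberg 0.542 over 26 tests, as for the 3 differences above). Bone marrow reads of both orientations were highly repeated, with 136 distinct structures for 427 minus reads and 56816 for all 234316 D-array reads.

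Comparisons between groups used the replicate values and a two-sided exact permutation test, over 11 pairs of groups and 8 measures. Of these 88 tests, 6 had an unadjusted p under 0.05 and 0 an adjusted one (lowest Benjamini-Hochberg value 0.419). Adjusted p-values below are Benjamini-Hochberg values over these 88 tests. The differences below are given as sizes with their spread, and none passed the adjustment.

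Loss of cohesin was examined by IAA in the Rad21degron line. Replicates with IAA had 1.04%, 0% and 0.0947% minus among D-array junctions, and untreated ones 0.0801%, 0.0580% and 0.0691%. The mean was 0.378% ± 0.575 against 0.0691% ± 0.0110 (SD, n = 3 each; exact permutation test, p = 0.7 with 0.1 as the least possible, adjusted p = 0.917), and the IAA replicates lay both above and below the untreated ones. These IAA libraries are small, with 1263 to 2492 junctions per replicate, and held 16 minus junctions, 8 of them distinct. Of the 16, 15 lay at Ighd4-1, which took 68.1% ± 9.004 of plus junctions with IAA and 15.0% ± 2.13 without (SD, n = 3 each). A single library, the a library of replicate 1, gave 12 of them among 669 D-array junctions (1.79%, exact 95% interval 0.930% to 3.11%), and 5 of these shared position, bait end and insert. Leaving that library out brought the difference to 0.0575 points (p = 0.7, exact permutation test), and leaving out replicate 1 turned it to −0.0217 points. The libraries of replicate 2 had 0 of 545 and 0 of 569, which allow shares of up to 0.550% and 0.527%.

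With IGCR1 deleted, IAA replicates had 0.438%, 0.212%, 0.237% and 0.0650%, and untreated ones 0.181%, 0.168%, 0.0808% and 0.0272%. The means were 0.238% ± 0.154 and 0.114% ± 0.0731 (SD, n = 4 each; exact permutation test, p = 0.171, adjusted p = 0.733), and the groups overlapped. The IAA group held 18 minus junctions in all, 1 to 10 per replicate. Of them 9 lay at the site with short bait ends, 114737562, which gave 4 of the 27 untreated ones. Without that site the means were 0.130% ± 0.102 and 0.0985% ± 0.0566. Untreated, the deleted line had 4.36% ± 5.04 of its minus junctions at Ighd1-1 and the undeleted line 39.5% ± 12.5 (SD, n = 4 and 3; exact permutation test, p = 0.0286 as the least this design can give, adjusted p = 0.503), without overlap. Plus junctions moved the same way, with 22.3% ± 4.79 at Ighd1-1 in the deleted and 47.2% ± 2.57 in the undeleted line. The deleted line gave 2 minus junctions at Ighd1-1 in all. The deleted and undeleted lines share no sequencing run, and the deleted line has b libraries only. Deletion, run and library type therefore cannot be told apart.

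Loss of CTCF was examined by IAA in the CTCFdegron line, with all 12 replicates in 1 run. Minus D-array junctions as a percent of all junctions had a lowest, median and highest value of 0.0285%, 0.0529% and 0.0926% with IAA and 0.0546%, 0.0946% and 0.167% without, with overlap. The means were 0.0578% ± 0.0247 and 0.102% ± 0.0395 (SD, n = 6 each; exact permutation test, p = 0.0411, adjusted p = 0.603). Leaving out any of 7 replicates moved the p to between 0.0563 and 0.0866 in the same exact permutation test. The D array itself held 70.5% ± 2.96 of all junctions with IAA and 94.6% ± 1.73 without. As a percent of D-array junctions the means were 0.0821% ± 0.0345 and 0.108% ± 0.0442 (exact permutation test, p = 0.284, adjusted p = 0.802). Ighd1-1 held 37.3% ± 9.77 of the minus junctions with IAA and 52.6% ± 8.30 without (SD, n = 6 each; exact permutation test, p = 0.0108, adjusted p = 0.476), and 39.3% ± 6.62 and 65.9% ± 7.47 of the plus ones. Within Ighd1-1 the minus share was 0.0826% with IAA and 0.0864% without.

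In the control lines IAA gave lower means in each case. Within same-numbered replicates the IAA value was lower in 4 of 4 pairs of the Ostir1 knock in line and 4 of 4 of the CTCF-mAID-GFP tagging line (exact sign-flip p = 0.125 each, the least 4 pairs allow), and in 3 of 4 parental pairs (exact sign-flip p = 0.375). Parental replicates 1 and 2 were sequenced in different runs with and without IAA, so in those pairs IAA and run cannot be told apart. The parental means were 0.0992% ± 0.0151 with IAA and 0.122% ± 0.0184 without (SD, n = 4 each; exact permutation test, p = 0.114, adjusted p = 0.718). They were 0.113% ± 0.0639 and 0.157% ± 0.0913 in the Ostir1 knock in line (exact permutation test, p = 0.429, adjusted p = 0.802) and 0.0830% ± 0.00909 and 0.103% ± 0.0377 in the CTCF-mAID-GFP tagging line (exact permutation test, p = 0.400, adjusted p = 0.802).

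Among untreated lines, Rad21degron had the lowest share. Its 3 replicates, at 0.0580% to 0.0801%, lay below all 4 parental ones, at 0.101% to 0.139% (means 0.0691% ± 0.0110 and 0.122% ± 0.0184; exact permutation test, p = 0.0286 as the least this design can give, adjusted p = 0.503). No sequencing run holds both groups, so line and run cannot be told apart, and with identical junctions counted once or with prey of at least 50 bases only the p was 0.0857 and 0.0571. Untreated CTCFdegron cells had 0.108% ± 0.0442 (SD, n = 6; exact permutation test against parental cells, p = 0.576, adjusted p = 0.845).

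In bone marrow pro-B cells the lowest, median and highest shares were 0.128%, 0.167% and 0.275% of D-array junctions. The mean was 0.184% ± 0.0564 against 0.122% ± 0.0184 in untreated parental cells (SD, n = 6 and 4; exact permutation test, p = 0.0619, adjusted p = 0.681), and the groups overlapped. The direction turned when each distinct structure was counted once, to 0.242% ± 0.0303 in bone marrow and 0.349% ± 0.187 in parental cells (exact permutation p = 0.229). The parental values split by sequencing run, with 0.199% and 0.177% in replicates 1 and 2 and 0.509% and 0.512% in replicates 3 and 4. Bone marrow replicates ran from 0.198% to 0.280%, so the turn rests on parental replicates 3 and 4. Fewer of the bone marrow minus junctions lay at Ighd1-1, 15.7% ± 9.60 against 55.0% ± 15.7 (exact permutation test, p = 0.00476 as the least this design can give, adjusted p = 0.419), and no bone marrow replicate overlapped with a parental one. Plus junctions at Ighd1-1 were 22.5% ± 1.38 in bone marrow and 64.4% ± 0.186 in parental cells. The groups share no run, and the means within the bone marrow runs were 0.172% and 0.195%.

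Junctions at the 3′ heptamer border were the leading class of the pooled minus junctions in every group with over 50 of them. They made up 74.4% in untreated Ostir1 knock in cells, 56.3% in untreated parental cells and 45.2% in bone marrow. The bone marrow shares depended on replicate 3, in which 58 of 137 minus junctions lay between D segments and 31 at the border. Without that replicate 55.9% of the bone marrow junctions lay at the border and 12.4% between D segments, against 22.0% with it and 9.84% in untreated parental cells. Farther inside the signal lay 21.3% in bone marrow, 18.3% without replicate 3, and 9.35% in untreated parental cells. Junctions above Ighd1-1 made up 4.92% in bone marrow and 18.7% in untreated parental cells. Averaged over replicates, the part above Ighd1-1 was 5.98% ± 7.55 and 19.9% ± 5.72 (SD, n = 6 and 4; exact permutation p = 0.0190), and 11.3% ± 4.63 in untreated CTCFdegron cells (n = 6; exact permutation p = 0.0333 against parental cells). Inserts that hold a D in the usual orientation were found in 5.14% ± 5.84 of bone marrow minus junctions, 6.33% ± 4.09 of untreated CTCFdegron ones and 4.53% ± 4.21 of untreated Rad21degron ones, against 12.6% ± 2.08 in untreated parental cells (exact permutation p = 0.0476, 0.0238 and 0.0286). Over all groups 225 of the 276 such inserts lay above Ighd1-1, so this measure overlaps with the part above Ighd1-1. These measures were chosen after the positions had been seen. Of their 33 tests 5 had an unadjusted p under 0.05, and the lowest Benjamini-Hochberg value was 0.269. Bone marrow, untreated CTCFdegron and untreated Rad21degron cells share no run with untreated parental cells, so group and run cannot be told apart. Between runs, the part above Ighd1-1 averaged 18.2% and 5.05% in untreated Ostir1 knock in cells and 21.25% and 18.5% in untreated parental cells.

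**Figure D5:**
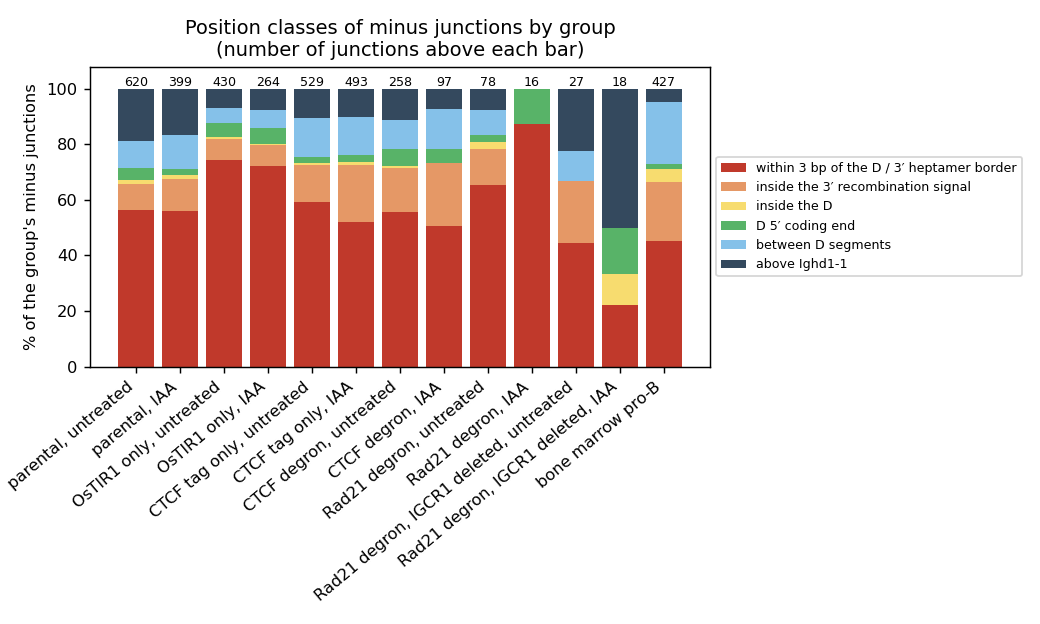
Share of each position class among the minus junctions of a group (vertical, percent; pooled over replicates) for 13 groups (horizontal), with the number of minus junctions above each bar. The 3′ heptamer border leads in every group with over 50 junctions, replicate 3 gives 58 of the 94 bone marrow junctions between D segments, and the groups with 16 to 27 junctions rest on few reads.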

How the data were processed

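Per the file headers, each line of the deposited files is a single junction, with its prey position, orientation (a signed number), alignment bounds and inserted bases; they have no column of counts, and reads were tallied here. Per the labels, the authors aligned reads to an AJ851868/mm9 hybrid genome, which was not used here; Bowtie2 and mm9 are named in the submitters' processing notes, and filters are not given in the sources used here. The 98 full libraries were used, and 12 off-target lists were not. In the lines, a and b libraries place a given sequence 3 bases off the bone marrow position, in opposite directions, and this shift was removed. IGCR1deleted Rad21degron has b libraries only. The title was followed for 4 libraries titled IAA whose treatment label lacks it. They are the a library of CTCFdegron replicate 4, the a and b libraries of CTCFdegron replicate 5, and replicate 4 of IGCR1deleted Rad21degron.

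D segments were peaks of at least 1000 plus junctions with a heptamer, a spacer of 12 and a nonamer matching at least 6 of 9 bases, named with blastn 2.17.0 against mm9. A position's sequence was the consensus of at least 3 reads with 80% agreement (up to 150 reads). A junction belonged to a segment within 100 bp, to its border within 3 bp and to its signal within 40 bp, which reaches past the nonamer. It belonged to the 5′ coding end from 5 bases inside to 3 beyond. Junctions up to 15 bp apart formed a site. An inserted D was a match of at least 8 bases. A replicate's value is the mean of its a and b libraries. Groups were compared with two-sided exact permutation tests, minus with plus or other regions with exact sign-flip tests, with Benjamini-Hochberg adjustment over 88, 33, 26 and 26 tests (Python 3.11.15, NumPy 2.4.6, pandas 2.3.3, SciPy 1.17.1). The permutation test was checked on simulated data. Binomial intervals are exact (Clopper-Pearson, 95%).

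Segments named in the text are those with at least 50 minus junctions, and sites are the 5 with the highest mean share. The members, measures and lists were chosen with earlier results of these data known. Same-numbered replicates deviated together, with every pair's correlation of deviations over 0.1, in the parental, Ostir1 knock in and CTCF-mAID-GFP tagging lines (lowest 0.376, 0.943 and 0.190), where 4 pairs cannot go below an exact sign-flip p of 0.125. Alternatives counted identical junctions once, summed a and b libraries or used either alone, required a prey of 50 bases, left out the 1 kb around Ighd4-1, blocked by replicate number and left out each replicate.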

Additional observations from a re-analysis of the deposited data

Results flagged for a closer look

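In 118 sets of 4 to 10 replicates, 8 had an end value set apart from the others by more of the range than Dixon's 95% value allows, and chance gives about 1 in 20. In untreated parental cells, replicate 2 had the lowest minus share at Ighd1-1 (0.0564% of its junctions, next value 0.120%) and the lowest part of minus junctions at the 3′ heptamer border (37.5%, next 56.5%), from 14 minus junctions. The 37.5% is the mean of its a and b libraries, with 1 of 4 and 5 of 10 junctions. In untreated CTCF-mAID-GFP tagging cells, replicate 1 was the highest in the minus share of all junctions (0.152%, next 0.0830%) and of D-array junctions (0.160%, next 0.0874%). Replicate 1 of untreated Ostir1 knock in cells had a D in the usual orientation in the insert of 22.5% of its minus junctions (next 2.78%). Its difference from replicates 3 and 4 also lies between runs. Replicate 6 of CTCFdegron with IAA had the highest part of minus junctions whose prey begins with CAC (58.3%, next 29.2%). That value is the mean of its a and b libraries, with 3 of 9 and 5 of 6 junctions. In IGCR1deleted Rad21degron with IAA, replicate 1 had 10% of minus junctions that begin with CAC and 40% at the 3′ heptamer border, where the other 3 replicates, with 1 to 4 minus junctions, had 0.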

How the results depend on the processing

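Differences are in percentage points, first group minus second. Kept here are all comparisons of the 2 shares, the region comparisons, bone marrow inserted bases and the other measures with an unadjusted p under 0.05, a choice made after the outcome was seen. For these, 478 values under the alternatives kept direction and side of 0.05, 88 rose above 0.05, 6 fell below it and 19 turned direction. For the 91 results left out, 667 values did so, 13 passed 0.05 and 66 turned direction; none of those results had an unadjusted p under 0.05. No adjusted p was under 0.05 in any comparison, and the 3 measures and several alternatives added after seeing the data are named as such in the text or here. The cause of the changes was not tested.

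Untreated Rad21degron against parental cells lost its unadjusted p under 0.05 in several alternatives (exact permutation p from 0.0571 to 0.171). As a percent of all junctions it was −0.0986 with identical junctions counted once, −0.0482 with a and b junctions summed, −0.0310 with a libraries only, −0.0430 with prey of at least 50 bases and −0.167 with the same junction, bait end and insert counted once (added). As a percent of D-array junctions it was −0.113, −0.0351 with a libraries only, −0.0476 and −0.239 in the same order. Its inserts with a D in the usual orientation differed by −7.58 with distinct structures. CTCFdegron with IAA against without, as a percent of all junctions, was −0.0288 with a libraries only and −0.0381 without the 1 kb around Ighd4-1. Bone marrow against parental cells turned to −0.0332 (identical junctions once), −0.00174 (b libraries only) and −0.189 (distinct structures) as a percent of all junctions. As a percent of D-array junctions it was −0.107 with distinct structures, and passed 0.05 at 0.0735 (a libraries only) and 0.0649 (without the 1 kb around Ighd4-1).

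Rad21degron with IAA against without turned to −0.0423 and −0.0309 (of all and of D-array junctions) without the 1 kb around Ighd4-1. IGCR1deleted Rad21degron against Rad21degron, both with IAA, turned to 0.0998 and 0.107 with b libraries only, 0.188 and 0.282 without that 1 kb, 0.102 and 0.111 without the a library of replicate 1 (added), and, of D-array junctions, 0.0181 with distinct structures.

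Outside the 3 control lines the numbers did not pair the samples by the correlation of their deviations. With the replicate block, CTCFdegron was −0.0439 of all junctions (exact sign-flip p = 0.0938) and −15.3 at Ighd1-1 (p = 0.0625), and bone marrow −0.00789 of all junctions. Untreated Rad21degron against parental cells was −0.0432 and −0.0474, and the Ighd1-1 parts were −33.7 (IGCR1 deleted) and −39.9 (bone marrow); 3 or 4 pairs cannot go below an exact p of 0.25 or 0.125.

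Leaving out 1 replicate at a time gave, of all junctions, −0.0263 to 0.383 for Rad21degron IAA, 0.0863 to 0.194 for IGCR1deleted Rad21degron IAA, −0.0533 to −0.0308 for CTCFdegron IAA, −0.252 to 0.157 between the Rad21 lines with IAA, −0.00706 to 0.0169 for bone marrow and −0.0550 to −0.0430 for untreated Rad21degron. Of D-array junctions it gave −0.0217 to 0.498, 0.0567 to 0.181, −0.329 to 0.190 between the Rad21 lines, −0.0301 to −0.0159 for parental IAA, 0.0432 to 0.0727 for bone marrow and −0.0602 to −0.0474 for untreated Rad21degron. Without its replicate 1, Rad21degron with IAA lay below untreated cells. The exact permutation p fell below 0.05 without replicate 4 of IGCR1deleted Rad21degron IAA (0.0286), replicate 2 of untreated parental cells (0.0286) or replicate 4 of bone marrow (0.0397). The treatment label of that IGCR1deleted Rad21degron replicate lacks IAA. The Ighd1-1 part was −41.4 to −28.8 for the IGCR1 deletion. For the D array less the 3 Mb above it, the ranges were −0.370 to −0.291 in bone marrow, −0.749 to −0.570 in CTCFdegron with IAA and −1.85 to −1.49 without. For the D array less other chromosomes they were −43.01 to −37.7, −48.3 to −46.8 and −44.5 to −39.6. Inserted bases in bone marrow were −17.01 to −12.3. With 5 replicates these sign-flip tests cannot go below an exact p of 0.0625.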
